A study of Mus musculus with 947 samples.

Results

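The mature miRNAs of the hairpins Mir296 and Mir298, which lie near the imprinted Gnas locus, were followed across 945 small RNA libraries of the mouse. The members were the rows mmu-miR-296-3p, mmu-miR-296-5p and mmu-miR-298-5p, that is 3 of 1076 miRNAs (7883 RNAs) in the table of the aging cohort and 3 of 795 miRNAs (5248 RNAs) in the table of the parabiosis cohort. They had been picked because their levels in the aging cohort were lower at higher ages, so the age values below are a description without a test. That choice was not made on the parabiosis cohort, the sexes or the order of the tissues. Earlier results of these data were known when it was made, however.

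The aging cohort held 769 libraries of 16 tissues from C57BL/6JN mice, 553 of them from males and 216 from virgin females. There were 10 ages from 1 to 27 months, with females up to 21 months. A tissue and age had 1 to 6 libraries. The parabiosis cohort held 176 libraries of 6 tissues from 30 male mice that had been joined surgically in pairs so that partners shared a circulation. Isochronic young mice (IY, 8 mice, 3 or 4.5 months) and isochronic aged mice (IA, 8 mice, 19 months) were joined to a partner of their own age. In 7 heterochronic pairs, a young mouse (HY, 7 mice, 4 months) was joined to an aged mouse (HA, 7 mice, 19 months). Every HY mouse was of a strain that no mouse of the other groups had, so in HY against IY and in HA against HY the effect of the joining or of age cannot be told apart from that of the strain. The IY mice were of 1 substrain of C57BL/6, whereas the aged mice held both C57BL/6J and C57BL/6JN, with IA 19A and 19B and HA 20A set apart from the other aged mice, and sources differ on which of the names goes with which mice. Brown, gonadal, mesenteric and subcutaneous adipose tissue are called BAT, GAT, MAT and SCAT.

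Values are reads per 1e+06 mapped reads (rpmm). In units of 1e+06 mapped reads, the depth was 2.29 to 167 in the aging cohort and 9.20 to 47.6 in the parabiosis cohort, with a median of 20.1 in both, at which 3 reads correspond to 0.149 rpmm. Known tissue miRNAs were highest in their own tissue for 16 of 17 checks, the exception being miR-150-5p in bone marrow, which ranked 3. Of the libraries, 10 of the aging cohort and 5 of the parabiosis cohort (all MAT, closest to GAT) had a miRNA profile closer to that of another tissue. The counts of limma calls and of age correlations were also made without them. No pair of libraries held identical values.

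A miRNA is cut from a hairpin RNA, which can yield a mature strand from its 5′ arm (5p) and from its 3′ arm (3p). The mature strand guides Argonaute proteins to messenger RNAs mainly through its seed, bases 2 to 8. Gnas encodes the stimulatory G protein alpha subunit, which couples hormone receptors to adenylyl cyclase. The locus is imprinted: several of its transcripts are made from a single parental copy, among them the antisense RNA Nespas, which is read from the paternal chromosome. Mir296 and Mir298 lie next to each other downstream on the same strand as Nespas and are known to be expressed from the paternal copy. Because these are bulk tissues, fewer cells that make a miRNA and less of it per cell cannot be told apart.

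The sequences of the 3 members and of the sister strand miR-298-3p are shown because the members share no seed and were thus read as separate sequences, not as copies of each other. They are from RefSeq on GRCm38.p6, the assembly also known as mm10, all on the minus strand of chromosome 2, with the seed in capitals. The first 3 are members, at chr2:174267058-174267079, chr2:174267093-174267113 and chr2:174267553-174267575, and miR-298-3p is at chr2:174267512-174267535.
mmu-miR-296-3p: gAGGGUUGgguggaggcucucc
mmu-miR-296-5p: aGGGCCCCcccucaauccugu
mmu-miR-298-5p: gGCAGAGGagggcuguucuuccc
mmu-miR-298-3p: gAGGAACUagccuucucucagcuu

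The 4 seeds all differ, and 0 of the other mature miRNAs among the 1679 mature names in that table share a member's seed. No other RNA in either data table had the same values as a member; rows that share only part of their reads were not looked for. The members are rich in G and C, at 68.2% for miR-296-3p, 66.7% for miR-296-5p and 65.2% for miR-298-5p, against 50% for miR-298-3p.

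Both hairpins are shown because they place the strands relative to each other, with the mature strands in capitals. The Mir296 hairpin spans chr2:174267047-174267125 (79 bases) and the Mir298 hairpin chr2:174267504-174267585 (82 bases).
Mir296 hairpin: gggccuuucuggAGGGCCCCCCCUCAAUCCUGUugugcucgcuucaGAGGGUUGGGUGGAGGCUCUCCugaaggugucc
Mir298 hairpin: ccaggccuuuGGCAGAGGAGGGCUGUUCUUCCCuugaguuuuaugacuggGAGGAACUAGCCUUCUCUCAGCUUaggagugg

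The hairpins were 378 bases apart, and 0 other genes of the annotation overlapped either of them. Nespas, at chr2:174281237-174295436 on the minus strand, had its nearer end, the 3′ end, 13652 bases from the Mir298 hairpin. Gnas, at chr2:174284320-174346744 on the plus strand, began 16735 bases from it.

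All 3 members were low in most tissues, and on the deposited scale each had its highest median in the brain. miR-298-5p had a median of 27.8 rpmm in the brain (lowest 3.38, highest 68.4, n = 51), which was far above its median of 3.87 in bone marrow (1.06 to 38.3, n = 56), 3.22 in GAT (0.328 to 9.77, n = 37) and 2.25 in spleen (0.228 to 23.2, n = 55). miR-296-3p had a median of 4.80 rpmm in the brain (1.48 to 11.02), 4.28 in GAT (0 to 13.5), 2.22 in spleen and 2.14 in bone marrow (0.750 to 21.1). miR-296-5p had a median of 4.18 rpmm in the brain (0.253 to 30.4), 3.00 in bone marrow (0.673 to 44.9), 2.97 in GAT and 1.38 in spleen. The same 4 tissues thus led for every member on this scale, although in a different order. The lead of the brain held under other scalings for miR-298-5p, but not for the miR-296 strands. Scaled to the miRNA sum, with medians per 1e+06 miRNA reads, miR-296-3p was highest in GAT (13.3) ahead of bone marrow (9.13) and brain (8.87), and miR-296-5p in bone marrow (13.1) ahead of GAT (8.17) and brain (6.98). With median-ratio scaling, miR-296-5p was highest in bone marrow, above the brain by 0.51 on the log2 scale (permutation test, adjusted p = 0.0313). The difference of miR-298-5p between brain and bone marrow was 0.93 with the miRNA sum and 1.33 with median-ratio scaling.

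Below them came MAT, with medians of 1.27 rpmm for miR-296-3p, 1.30 for miR-296-5p and 1.32 for miR-298-5p, and then bone and SCAT with medians between 0.640 and 1.07 rpmm. Lung, skin, heart, limb muscle and small intestine lay between 0.308 and 0.656 rpmm. Kidney, liver and pancreas lay between 0.109 and 0.304 rpmm, which is near the worth of 3 reads. BAT had a median of 0 for each member, with 16 of 31 libraries at 0 for miR-296-3p, 19 for miR-296-5p and 20 for miR-298-5p. A tissue was kept for the tests if at least 10% of its libraries reached 1 rpmm, which held in 12 tissues for miR-296-3p and in 13 for each of the others, 38 pairs of a member and a tissue in all.

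Neighbours in the order of the medians were compared by a two-sided permutation test with 100000 shuffles on log2(rpmm + 1), with Benjamini-Hochberg adjustment over the 15 neighbouring pairs of each member. Of 45 neighbouring pairs, 9 differed. For miR-298-5p, the brain stood above bone marrow by 1.90 on the log2 scale (adjusted p = 7.5e-05, n = 51 and 56), bone marrow above GAT by 0.56 (adjusted p = 0.0264), spleen above MAT by 0.70 (adjusted p = 7.5e-05), skin above kidney by 0.40 (adjusted p = 0.0023) and pancreas above liver by 0.27 (adjusted p = 0.0139). For miR-296-3p, the brain and GAT differed by 0.11 with an adjusted p of 0.639, which leaves their order unsettled, while bone marrow stood above MAT by 0.69 (adjusted p = 0.00015) and pancreas above BAT by 0.52 (adjusted p = 0.025). For miR-296-5p, the brain and bone marrow differed by 0.03 with an adjusted p of 0.865, GAT stood above spleen by 0.47 (adjusted p = 0.0317) and kidney above BAT by 0.25 (adjusted p = 0.01). The other 36 neighbours did not differ beyond the spread of their libraries. The labels do not tie libraries of different tissues to a mouse, so libraries of 1 mouse may stand in both tissues of a pair.

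**Figure D1:**
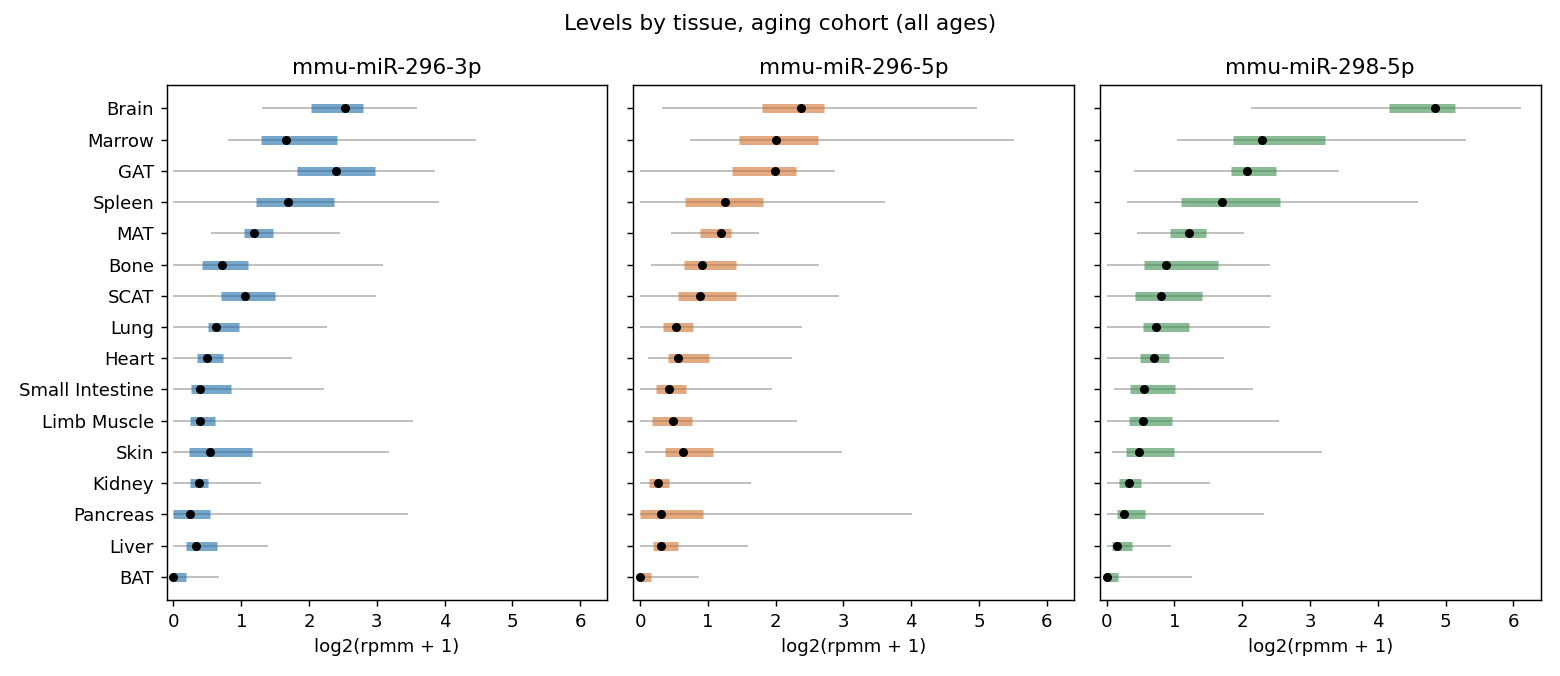
Levels of the 3 miRNAs in the 16 tissues of the aging cohort, as log2(rpmm + 1), with the dot at the median, the thick bar over the quartiles and the thin bar over the range of the libraries. miR-298-5p in the brain, with a median of 27.8 rpmm, stands apart from the other tissues, while miR-296-3p and miR-296-5p reach similar levels in the brain, GAT and bone marrow.

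The brain also differed in which hairpin gave more reads. Summed over its 51 libraries, there were 32363 reads of miR-298-5p against 5713 of miR-296-3p and 6145 of miR-296-5p, a ratio of 2.73 for miR-298-5p over both miR-296 strands. Among brain libraries the ratio ran from 1.58 to 4.38. The other 15 tissues had summed ratios from 0.215 in pancreas to 0.922 in limb muscle. Thus miR-298-5p outnumbered the miR-296 strands in the sum of the brain libraries only, and single libraries of spleen (up to 2.46), limb muscle (up to 2.33) and bone marrow (up to 1.91) reached into the range of the brain. This ratio compares reads of different sequences, which can be captured with different efficiency, so its level has no absolute meaning, and a difference in it between tissues is a description here.

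The strand balance of Mir296 varied less. The 5p strand made up 37.2% of the summed miR-296 reads in GAT and 37.2% in spleen, 51.8% in the brain, 58.2% in bone marrow, 59.5% in limb muscle and 59.6% in heart. Within the brain it was 65.9% in the 1 month libraries (n = 6) and 36.6% in the 27 month libraries (n = 4). The sister strand miR-298-3p, listed in the aging table, was much rarer, with 904 reads in the brain beside the 32363 of miR-298-5p. Its brain median was 0.738 rpmm (0 to 2.34), 13 of 51 brain libraries reached 1 rpmm, and its next highest median was 0.0761 rpmm, in GAT.

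**Figure D2:**
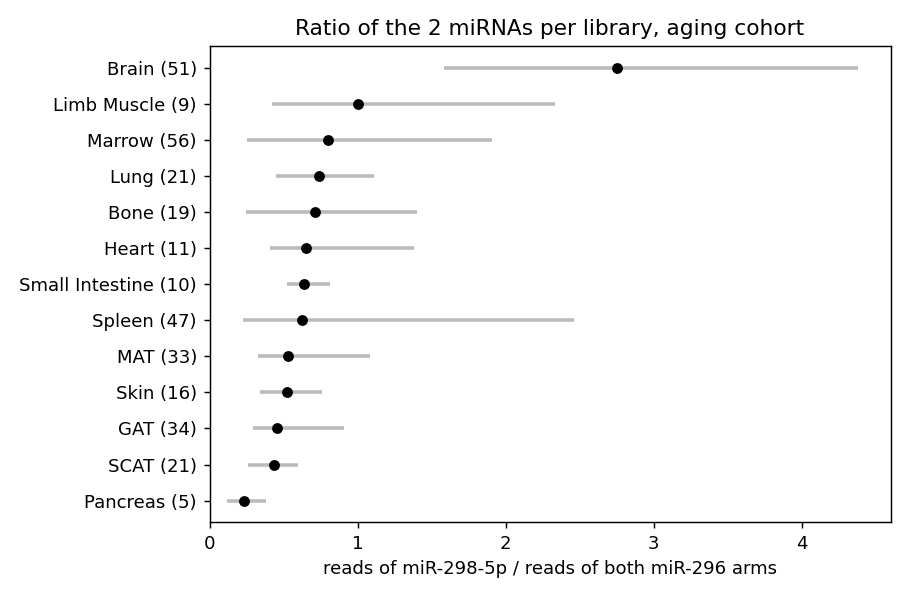
Reads of miR-298-5p divided by the reads of both miR-296 strands, per library, in each tissue of the aging cohort, with the median as a dot, the range as a line and the number of libraries in brackets. Libraries with at least 20 reads of miR-298-5p and 20 of miR-296 are shown, and the brain libraries run from 1.58 to 4.38.

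With age, the members were lower in most tissues, most clearly in bone marrow, a tissue of blood formation. Spearman's rho with age, the measure by which the members had been chosen, was −0.79 for miR-296-3p, −0.72 for miR-296-5p and −0.80 for miR-298-5p in bone marrow (n = 56). In heart (n = 53), rho was −0.74 for miR-296-5p, −0.64 for miR-298-5p and −0.66 for miR-296-3p, the last below the level kept for tests. In bone (n = 48), rho was −0.65, −0.70 and −0.63 for miR-296-3p, miR-296-5p and miR-298-5p. Over the 38 pairs of a member and a tissue, rho was under −0.5 in 19, against 4.31% over all 8849 pairs. The 19 were 5 for miR-296-3p, 7 for miR-296-5p and 7 for miR-298-5p, and since the members were selected on this measure nothing is read from the count.

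The other tissues under −0.5 were small intestine (−0.56 for miR-296-3p and −0.60 for miR-298-5p), lung (−0.54, −0.52 and −0.56 in the order above), limb muscle (−0.53 for miR-296-3p and −0.64 for miR-296-5p), spleen (−0.53 for miR-296-5p and −0.59 for miR-298-5p) and skin (−0.68 for miR-296-5p and −0.52 for miR-298-5p). The values just inside the threshold were −0.52 for miR-298-5p in skin and −0.52 for miR-296-5p in lung, and just outside lay −0.49 for both miR-296 strands in pancreas and −0.47 for miR-296-3p in skin. The brain had −0.28, −0.38 and −0.29 for miR-296-3p, miR-296-5p and miR-298-5p, and these values depended on the libraries and the scaling: they were −0.53, −0.61 and −0.49 in males only, −0.38, −0.65 and −0.50 with median-ratio scaling, −0.47, −0.57 and −0.45 with the miRNA sum, and −0.07, −0.20 and −0.08 without the 1 month libraries. MAT and SCAT lay between −0.19 and −0.01, and the sign of miR-296-3p there changed with the scaling. GAT alone among the tissues kept had positive values for all members, of 0.41, 0.31 and 0.31 (n = 37). Without the 1 month libraries these were 0.54, 0.52 and 0.43, and in males only 0.44, 0.17 and 0.28.

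**Figure D3:**
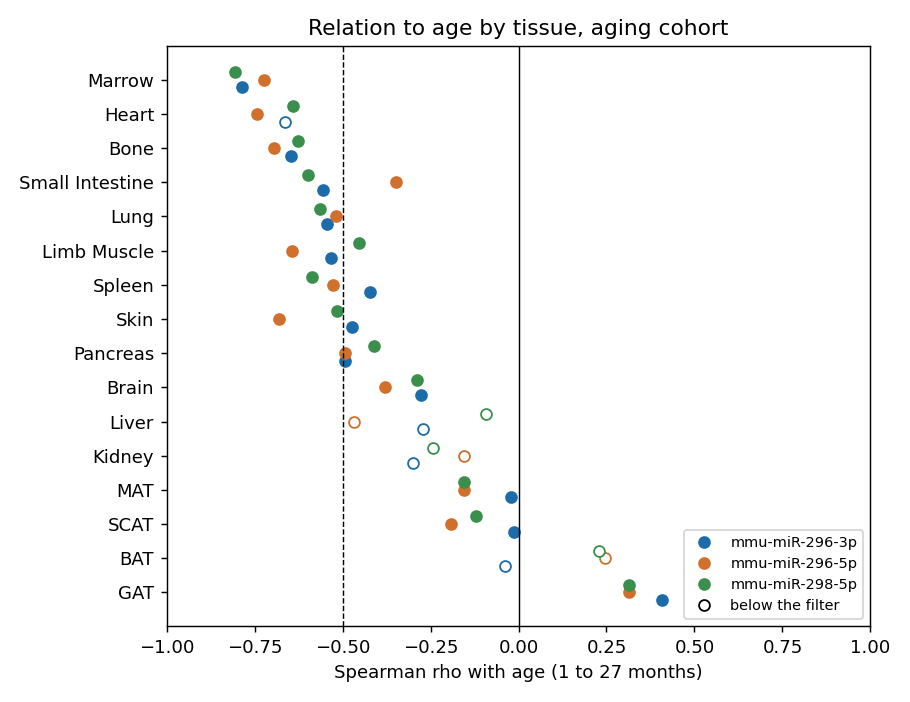
Spearman's rho between the level of each miRNA and age in each tissue of the aging cohort, with the threshold of −0.5 dashed and open circles for tissues below the level kept for tests. Bone marrow, heart and bone lie furthest to the negative side and GAT lies at 0.41, 0.31 and 0.31.

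The levels in bone marrow were lower from 1 to 3 months and lower again after. In bone marrow at 1 month (n = 6), miR-298-5p was 29.4 ± 9.18 rpmm (mean ± SD, 13.4 to 38.3), at 3 months (n = 6) 16.4 ± 4.20, and at 21 to 27 months (n = 14) 2.56 ± 1.05 (1.06 to 3.98). miR-296-3p was 16.7 ± 4.45 rpmm at 1 month (9.44 to 21.1), 6.92 ± 2.37 at 3 months and 1.43 ± 0.515 at 21 to 27 months (0.750 to 2.37). miR-296-5p was 23.8 ± 16.4 rpmm at 1 month (4.19 to 44.9), 8.49 ± 2.95 at 3 months and 1.79 ± 0.708 at 21 to 27 months (0.673 to 3.22). For all 3 members, every 1 month library of bone marrow lay above every library of 21 to 27 months, and the means differed 11.7-fold for miR-296-3p, 13.3-fold for miR-296-5p and 11.5-fold for miR-298-5p. At 9 months, 1 female library (replicate 30) stood back up at 15.7, 26.3 and 24.6 rpmm for miR-296-3p, miR-296-5p and miR-298-5p, above the other 5 of its age.

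Pancreas, low in adults, was higher at 1 month (n = 5), with 6.53 ± 2.65 rpmm of miR-296-3p, 8.92 ± 5.81 of miR-296-5p and 2.86 ± 0.724 of miR-298-5p, against means of 0.234, 0.544 and 0.250 at 21 to 27 months (n = 11), again without overlap. In spleen, the means were 9.64, 6.37 and 11.05 rpmm at 1 month (n = 6) and 2.57, 1.17 and 1.84 at 21 to 27 months (n = 14). The brain held 47.6 ± 19.8 rpmm of miR-298-5p at 1 month (n = 6), 19.0 ± 13.2 at 3 months (7.62 to 32.8, n = 4) and 19.4 ± 10.5 at 21 to 27 months (n = 13). On the deposited scale, its mean at 3 months was thus near that at 21 to 27 months, though from few libraries. Other scalings were not run without the 1 month libraries. All 1 month libraries lay above all libraries of 21 to 27 months in 2 tissues for miR-296-3p, 6 for miR-296-5p and 5 for miR-298-5p. The share over all miRNAs was not counted and the members were chosen for lower levels with age. Nothing is therefore read from these counts. Without the 1 month libraries, 11 of the 38 rho values were under −0.5, and those of bone marrow were −0.71, −0.64 and −0.73 in the order above.

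In heart, miR-296-5p was 2.18 ± 1.10 rpmm at 1 month (n = 6) and 0.311 ± 0.237 at 21 to 27 months (n = 13), a 7.01-fold difference, and miR-298-5p was 1.59 ± 0.562 and 0.392 ± 0.323, a 4.05-fold difference. In between, the mean of miR-296-5p was 1.26 at 3 months, 0.951 at 6, 0.766 at 9 and 0.562 at 12 months. GAT ran the other way, from 4.64 rpmm of miR-296-3p at 1 month (n = 5) and 4.31 at 3 months (n = 5) to 7.36 ± 2.56 at 21 to 27 months (n = 8), while miR-296-5p had 3.38, 2.54 and 3.90 ± 1.02 and miR-298-5p 3.68, 3.32 and 5.67 ± 2.66. The course was not a steady rise, as males at 6 months had 0.282 to 1.86 rpmm of miR-296-3p (n = 4).

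**Figure D4:**
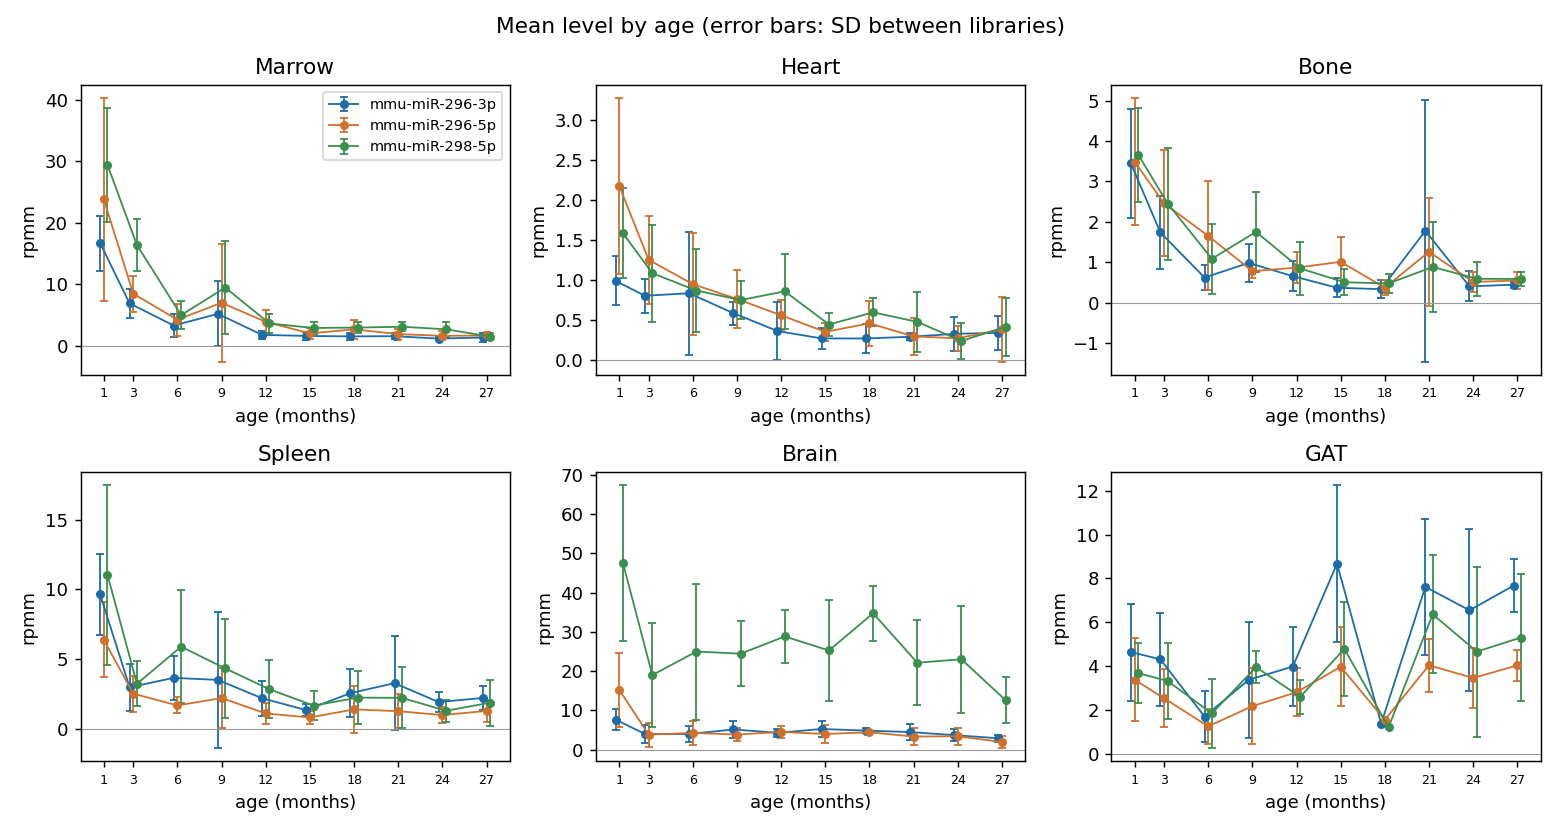
Mean ± SD of each miRNA in rpmm by age in bone marrow, heart, bone, spleen, brain and GAT of the aging cohort. In bone marrow the means drop from 29.4 rpmm of miR-298-5p at 1 month to 16.4 at 3 months and stay low from 12 months on, whereas the GAT means at 21 to 27 months are above those at 3 months.

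The 3 members moved together within tissues. Across the libraries of a tissue, Pearson's r of log2(rpmm + 1) had a median over tissues of 0.820 between miR-296-3p and miR-296-5p (0.328 to 0.917, 12 tissues), 0.865 between miR-296-3p and miR-298-5p (0.538 to 0.952, 12 tissues) and 0.830 between miR-296-5p and miR-298-5p (0.480 to 0.913, 13 tissues). In the parabiosis cohort the medians were 0.714, 0.902 and 0.752 over 2, 2 and 3 tissues. Libraries share a scale and a depth here, and age runs through all of them, so these r values are a description. Among other miRNAs, the mean r within tissues was highest with miR-1983 for miR-296-3p (0.499) and miR-298-5p (0.557). For miR-296-5p it was highest with miR-351-5p (0.551) and miR-322-3p (0.519), neighbours in an X-linked miRNA cluster, and miR-351-5p also followed for miR-298-5p (0.541). Over the 16 tissue medians, the members' own r was 0.900 to 0.967, and the most similar other miRNAs were miR-139-3p (0.787 with miR-296-3p and 0.805 with miR-296-5p), which lies in an intron of Pde2a, and miR-3106-5p (0.877 with miR-298-5p).

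To ask whether a shared circulation moved these miRNAs, groups of the parabiosis cohort were compared by limma on log2(rpmm + 1) within each tissue, over all miRNAs kept there. miR-296-5p and miR-298-5p were kept in heart, GAT and MAT and miR-296-3p in GAT and MAT, 8 pairs of a member and a tissue. In heart, miR-296-5p and miR-298-5p were lower in the aged mice of heterochronic pairs than in their young partners, and in GAT, miR-296-3p was higher in aged mice joined to young mice than in aged mice joined to aged mice. Over the 8 pairs, 2 were called in HA against HY (background 9.81% of 3211), 1 in HA against IA (background 0.965%), 0 in IA against IY (background 8.13%) and 0 in HY against IY (background 0%). At an unadjusted p under 0.05, limma and edgeR each had 4 of 8 in IA against IY (21.1% and 23.5% of all 3211), 2 of 8 in HA against HY (19.5% and 20.9%) and 0 of 8 in HY against IY (4.83% and 7.38%), and they had 3 and 4 of 8 in HA against IA (16.4% and 18%). Without the aged mice set apart by substrain (IA 19A and 19B, HA 20A), the same 3 tests were called.

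Heart levels in the parabiosis cohort were low and rested on few reads. For miR-296-5p 4 of 30 libraries and for miR-298-5p 3 of 30 reached 1 rpmm, and all of these were from IY or HY. Both were thus kept for the tests only through the groups where they were high. Without the filter, both were still called in HA against HY. miR-296-5p was 0.338 rpmm at the lowest, 0.677 at the median and 1.23 at the highest in IY, 0.358, 0.732 and 1.52 in HY, 0.0926, 0.193 and 0.524 in HA and 0.142, 0.447 and 0.714 in IA. The median number of reads was 5 in HA and 15 in HY. HA was thus the lowest group, and its libraries overlapped those of HY between 0.358 and 0.524 rpmm. On the log2 scale, HA was below HY by 0.53 ± 0.13 (difference −0.53, SE; limma adjusted p = 0.00539, n = 7 and 7). In pair 14 the HA mouse had 0.0926 rpmm (1 read) and its HY partner 1.52 (25 reads), and in pair 11 the values were closest, 0.410 (7 reads) and 0.570 (10 reads).

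miR-298-5p in heart was 0.364, 0.696 and 1.29 rpmm at the lowest, median and highest in IY, 0.399, 0.630 and 1.56 in HY, 0.150, 0.370 and 0.524 in HA and 0.288, 0.609 and 0.799 in IA. HA was again lowest, with an HA to HY difference of −0.44 ± 0.12 (SE; limma adjusted p = 0.0122), and median read numbers of 5 and 14. For each of the 3 members the HA mouse was below its own partner in 7 of 7 pairs. How many of all heart miRNAs were lower in HA in every pair was not counted, so nothing is read from this. Of the 7 HA libraries, 4 held up to 3 reads of miR-296-3p. miR-296-3p, under the level kept for tests in heart, had medians of 0.608 rpmm in IY, 0.570 in HY, 0.129 in HA and 0.274 in IA, and without the filter its HA to HY difference was −0.35 (limma adjusted p = 0.0104). Among the heart miRNAs tested, 8.53% (44 of 516) were lower in HA than in HY.

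Both heart differences passed in 30 of 30 fits that left out a library, with adjusted p from 0.00249 to 0.0191 for miR-296-5p and from 0.00724 to 0.0398 for miR-298-5p. These fits used the set of miRNAs kept with all 30 libraries, so leaving 1 out could not drop a member from the test. The pseudocount of 1 shrinks differences at such levels: with 0.1 they were −1.37 and −1.05, and edgeR on the recovered reads gave −1.54 (adjusted p = 0.00547) and −1.29 (adjusted p = 0.0069). The HA mice differ from the HY mice in age and also in strain, which cannot be told apart. Isochronic aged and young hearts, neither of them from the strain of the HY mice, were not called, with IA to IY differences of −0.29 ± 0.12 for miR-296-5p (limma adjusted p = 0.0867) and −0.15 for miR-298-5p (adjusted p = 0.387). HA and IA differed by −0.13 (adjusted p = 0.505) and −0.21 (adjusted p = 0.265), and HY and IY by 0.10 (adjusted p = 0.736) and 0.08 (adjusted p = 0.784).

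Beside them in the same heart comparison, the Dlk1-Dio3 miRNAs, a large imprinted cluster expressed from the maternal copy, had 26 of 46 lower in HA, with a median of −0.48 against 0.01 over all heart miRNAs (miR-411-3p −0.82, adjusted p = 0.00243). miR-335-5p (−0.89, adjusted p = 0.00345) and miR-335-3p (−0.70, adjusted p = 0.014), from the imprinted gene Mest, were lower too, which makes 2 of 3 kept miRNAs of Igf2, H19 and Mest. White blood cell miRNAs had 2 of 6 higher in HA (miR-150-5p 0.87, adjusted p = 0.0221, and miR-223-5p 0.57, adjusted p = 0.00361), with median sums of 1338 rpmm in HA and 973 in HY. They did not all go the same way, as miR-142a-5p was −0.28 (limma adjusted p = 0.42). Epithelial miRNAs had 2 of 4 higher (miR-141-3p 0.91, adjusted p = 0.0191, and miR-200c-3p 0.73, adjusted p = 0.00727), with sums of 37.3 and 17.8 rpmm. Red blood cell miRNAs had 0 of 5 called by limma. Over all miRNAs in the 6 tissues, limma called 177 of 3211 pairs higher in HA than in HY. The part of other cells in the members' difference was not tested.

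In GAT, miR-296-3p was 0.945, 1.14 and 1.62 rpmm at the lowest, median and highest in IY, 0.295, 1.74 and 3.24 in HY, 0.255, 1.38 and 2.64 in HA and 0.249, 0.336 and 0.890 in IA. IA was lowest, all 8 IA libraries lay below the lowest IY library, and 5 of 7 HA libraries lay above the highest IA library. How many of all GAT miRNAs had IA and IY without overlap was not counted. HA was above IA by 0.72 ± 0.21 (SE; limma adjusted p = 0.0476), where 3.22% of GAT miRNAs (20 of 621) were higher. miR-296-5p had medians of 1.53 rpmm in IY, 1.85 in HY, 1.57 in HA and 0.706 in IA, with an HA to IA difference of 0.61 ± 0.20 (limma adjusted p = 0.0704). miR-298-5p had medians of 1.2, 1.41, 1.95 and 0.677 rpmm in the same order, with an HA to IA difference of 0.57 ± 0.21 (adjusted p = 0.109). IA was the lowest group for each member.

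The GAT call was close to the threshold. It was lost in 23 of 30 fits that left out a library (adjusted p 0.00678 to 0.155) and with a pseudocount of 0.1 (1.35, adjusted p = 0.0523) or no filter (adjusted p = 0.0554), and held without HY 12B, HY 14B, IY 16A, HA 1A, HA 20A, IA 7B or IA 9A. Without HA 1A or without HA 20A, all 3 members were called. With edgeR on recovered reads, all 3 members were called as well, at 1.69 for miR-296-3p (adjusted p = 0.0167), 1.21 for miR-296-5p (adjusted p = 0.049) and 1.26 for miR-298-5p (adjusted p = 0.049). IA against IY in GAT gave −0.55 ± 0.20 (limma adjusted p = 0.115), −0.55 ± 0.19 (adjusted p = 0.0978) and −0.43 ± 0.20 (adjusted p = 0.293), with 8 of 8 IA libraries below the IY median for each member.

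White blood cell miRNAs in GAT are set beside the members. Their sum over 6 miRNAs had a median of 6093 rpmm in HA (733 to 7231), 2548 in IA (813 to 4638), 2024 in HY and 2611 in IY. The HA mice with the lowest members were 1A, with a sum of 733 and 0.611, 0.509 and 0.255 rpmm of miR-296-3p, miR-296-5p and miR-298-5p, and 20A, with 2464 and 0.255, 0.638 and 0.510. HA 11A, 12A and 14A, with sums of 6188, 6371 and 7231, had 2.64, 2.23 and 2.57 rpmm of miR-296-3p. Outside HA, IA 19A had the highest IA sum, 4638, with 0.334, 0.200 and 0.200 rpmm of the 3 members. The HY group had higher member medians than IA at a lower median sum. Of the 6, 0 were called by limma between HA and IA, with a median of 0.80 against 0.02 over all GAT miRNAs. They did not all go the same way: miR-223-3p was 1.31 (adjusted p = 0.0688), miR-142a-5p 1.07 (adjusted p = 0.0704) and miR-150-5p −0.94 (adjusted p = 0.251). The part of white blood cells in the members' difference was not tested. Of the Dlk1-Dio3 miRNAs in GAT, 35 of 53 were lower in IA than in IY (median −0.77 against 0.03), and 5 of 53 were higher in HA than in IA (miR-540-5p 0.98, adjusted p = 0.0309).

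Levels of the members in GAT cannot be set across the cohorts, but the order of ages can be put side by side. In aging cohort males, miR-296-3p in GAT was 3.69, 6.38 and 6.73 rpmm at 3 months (n = 3) and 7.46 and 7.52 at 21 months (n = 2). Between these 2 ages the older males were the higher ones, whereas all IA libraries at 19 months lay below IY in the parabiosis cohort. That IA to IY difference was not called by limma, and the aging side rests on few males. Males at 24 months, with 3.94 and 9.16 rpmm (n = 2), overlapped those at 3 months, and males at 6 months had 0.282 to 1.86 (n = 4). The same males overlapped for miR-296-5p (1.55 to 4.51 rpmm at 3 months, 3.26 to 5.64 at 21 months) and for miR-298-5p (2.73 to 6.27 and 5.22 to 9.77). In heart, aging cohort males had 0.499, 1.04 and 1.44 rpmm of miR-296-5p at 3 months (n = 3) and a median of 0.294 at 21 months (0.125 to 0.709, n = 4). The ages, the joining and the table differ between the cohorts, and this contrast was not tested.

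In MAT, no difference passed the test, with adjusted p of 0.478 or more in limma for each member and comparison. Its medians in IY, HY, HA and IA were 1.08, 1.32, 0.812 and 1.77 rpmm for miR-296-3p, 1.54, 1.59, 1.57 and 0.906 for miR-296-5p and 1.25, 1.41, 1.23 and 1.26 for miR-298-5p. The spread was wide, from 0.366 to 11.6 rpmm of miR-296-3p within HA. Kidney, liver and limb muscle were below the level kept. There, the group medians were at most 0.635 rpmm, or 12.5 reads. In limb muscle, miR-296-5p was 0.292 to 0.717 rpmm in IY (6 to 26 reads) and 0 to 0.275 in IA (0 to 7 reads), without overlap. Without the filter the difference was −0.33 (limma adjusted p = 0.0384). How many of all limb muscle miRNAs had these groups without overlap was not counted.

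**Figure D5:**
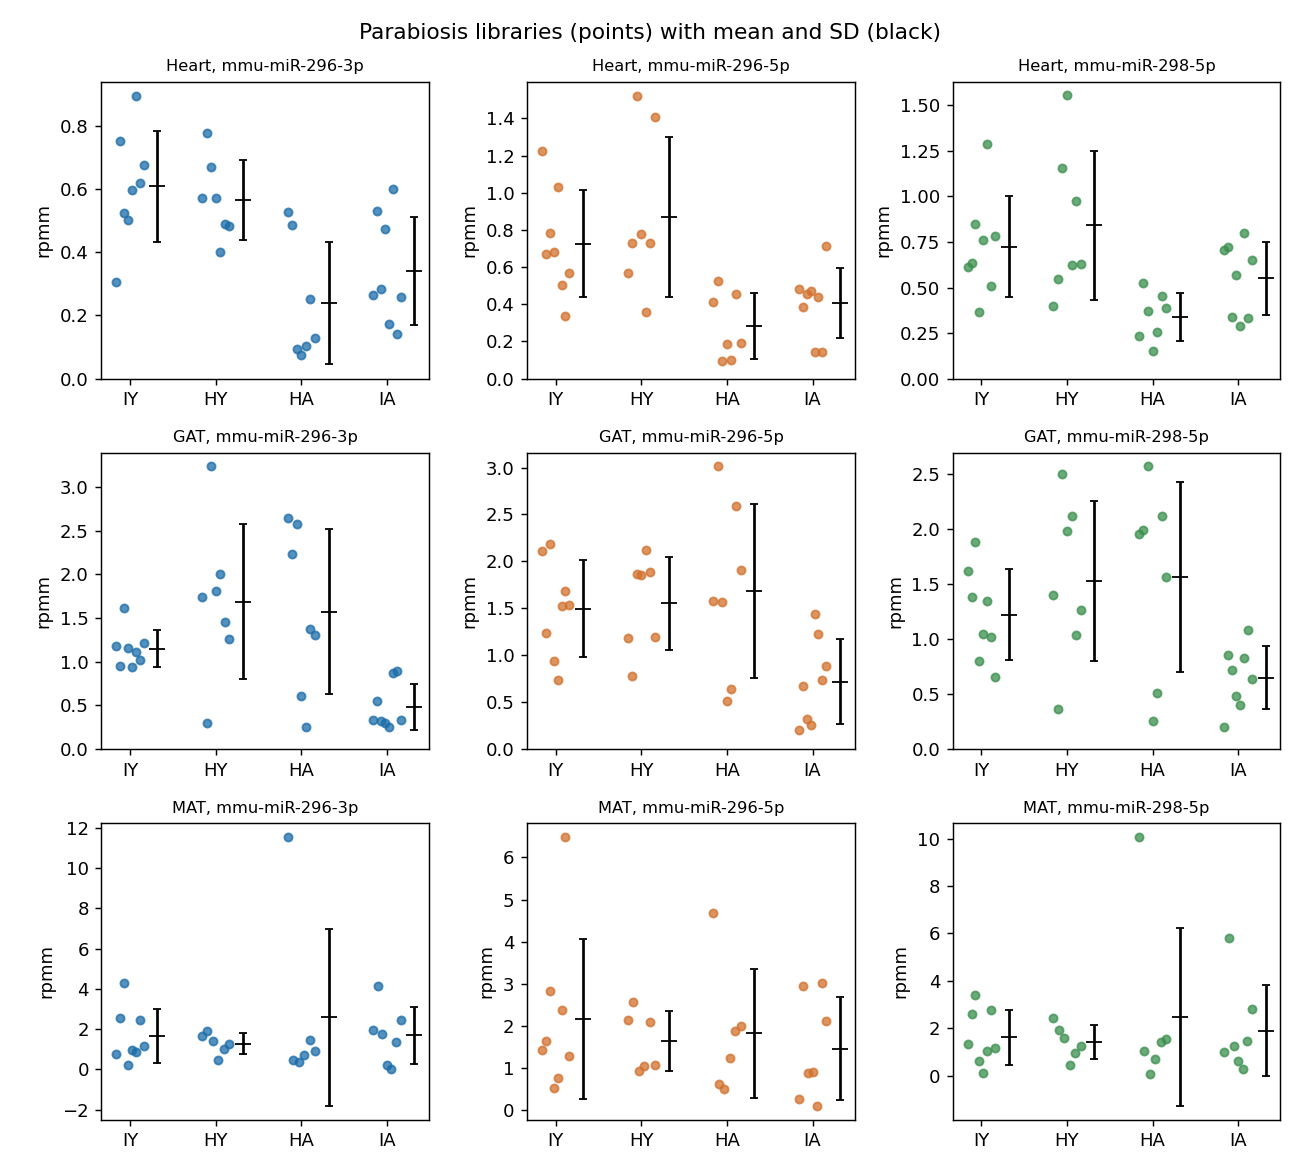
Levels in rpmm of each miRNA in heart, GAT and MAT of the parabiosis cohort, 1 point per library, with the mean and SD in black, for mice joined to a partner of their own age (IY young, IA aged) or of the other age (HY young, HA aged). In heart the HA libraries of miR-296-5p (median 0.193 rpmm) lie low against HY (median 0.732), in GAT the IA libraries of miR-296-3p (median 0.336) lie lowest, and MAT shows 1 high HA library at 11.6 rpmm of miR-296-3p.

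Taken per mouse, with the log2 values centred in each tissue and averaged over its tissues, miR-296-5p was lower in isochronic aged than in isochronic young mice. The difference was −0.25, between a median of −0.18 in IA and 0.06 in IY (exact permutation test, two-sided, p = 0.00839, adjusted p = 0.0465, n = 8 and 8), where 19.3% of 729 miRNAs were called. miR-296-3p differed by −0.21 (exact permutation adjusted p = 0.0719) and miR-298-5p by −0.16 (exact permutation adjusted p = 0.209). The mean of a mouse took in all its tissues, also kidney, liver and limb muscle, where the members were below the level kept for tests. Partners of a pair share a circulation. With the pair as the unit, 4 against 4, miR-296-5p had p = 0.0286, the smallest this exact permutation design allows, and an adjusted p of 0.113. The call was lost in 12 of 30 repeats without a mouse, those without IY 10A, 10B, 15A, 16B, 17A or 17B and IA 6A, 6B, 7A, 9A, 9B or 19A, with adjusted p from 0.0234 to 0.0887 over the 30, and without IA 19B miR-296-3p was called as well (adjusted p = 0.0255). Without the aged mice set apart by substrain, miR-296-5p (−0.26, exact permutation adjusted p = 0.0482) and miR-296-3p (−0.26, exact permutation adjusted p = 0.0324) were called. The other 3 contrasts had 0 of 729 miRNAs called by the exact permutation test (background 0%), with 94, 57 and 96 at an unadjusted p under 0.05 in HA against IA, HY against IY and HA against HY, and the members' adjusted p ran from 0.615 to 0.984. Within single tissues, limma called 31, 0 and 315 of 3211 there. In HA against HY, the smallest p that the exact permutation test of 7 pairs allows is 0.0156. After adjustment over 729 miRNAs, a call there needed many miRNAs at that smallest p together, so nothing is read from that 0.

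Between the sexes, 1 of 38 pairs of a member and a tissue differed in the aging cohort, where 4.48% of all pairs did. It was miR-296-3p in SCAT, with 0, 0.836 and 2.55 rpmm at the lowest, median and highest in 27 male libraries and 0.626, 1.53 and 5.19 in 11 female libraries. The ranges overlapped, 21 of 27 males lay below the female median, and the male to female difference with age as a factor was −0.56 ± 0.18 (SE; limma adjusted p = 0.0402), where 4.43% of SCAT miRNAs were lower in males. miR-296-5p (−0.33, adjusted p = 0.264) and miR-298-5p (−0.41, adjusted p = 0.107) did not pass in limma. The medians of miR-296-5p were 0.775 rpmm in males and 1.61 in females, and those of miR-298-5p 0.618 and 1.37.

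Epithelial miRNAs differed much more in the same libraries: 8 of 8 were lower in male SCAT, with sums of 105 rpmm in males (9.12 to 771) and 2881 in females (612 to 4994). White blood cell miRNAs had 0 of 6 called in limma, and red blood cell miRNAs 1 of 5 higher in males. The inguinal fat pad of female mice also holds the mammary gland. The part of epithelium in the difference of miR-296-3p was not tested. The call of miR-296-3p in SCAT was lost in 15 of 38 fits without a library, with adjusted p from 0.0123 to 0.0989. Those were the fits without replicates 15 or 56 at 1 month, 26 at 6 months, 02, 40, 49 or 54 at 9 months, 51 at 12 months, 17 or 55 at 15 months, 11 or 30 at 18 months, and 27, 31 or 47 at 21 months. With age and sequencing plate as terms it was −0.46 (limma adjusted p = 0.0561), with a pseudocount of 0.1 −0.99 (adjusted p = 0.103), and without the filter the adjusted p was 0.0742. Without replicate 16 at 3 months, a library closest to bone in which all members were at 0, its adjusted p was 0.0123 and miR-298-5p was called too (adjusted p = 0.0412).

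The slope with age did not differ between the sexes for any member in limma or edgeR: 0 of 38 pairs passed, against 0.294% of all pairs in limma, with 3 and 10 of 38 at an unadjusted p under 0.05, where limma and edgeR had 7.73% and 7.72% of all 8849. The brain had the steepest unadjusted difference among these for miR-296-5p, −0.10 per month on the log2 scale for males against females (limma adjusted p = 0.17), where the median over all brain miRNAs was −0.06.

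The other miRNAs of imprinted loci and of blood cells, from lists made for this comparison, are set beside the age values of the members. The members were chosen for lower levels with age, so nothing is read from their standing against these lists. Of the Dlk1-Dio3 pairs of a miRNA and a tissue, 233 of 804 had a rho under −0.5, with a median of −0.31 against 0.04 over all miRNAs. Of those from Igf2, H19 and Mest, 2 of 36 did. In bone marrow, where the members reached −0.72 to −0.80, 0 of 17 Dlk1-Dio3 miRNAs and 8 of all 532 miRNAs were under −0.5. In GAT, it was 41 of 66 Dlk1-Dio3 miRNAs under −0.5 (median −0.54) beside the positive values of the 3 members.

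Red and white blood cell miRNAs had no rho under −0.5 in any tissue kept, 0 of 76 and 0 of 90. Above 0.5 lay 0 of the 76 and 13 of the 90. In bone marrow their medians were −0.22 over 5 red cell miRNAs and −0.05 over 6 white cell miRNAs, beside −0.72 to −0.80 for the members, which were chosen on this measure. Epithelial miRNAs had 0 of 107 under −0.5. In the parabiosis cohort, 97 of 266 Dlk1-Dio3 pairs were lower in IA than in IY over all 6 tissues (median −0.57 against −0.04), 65 were lower in HA than in HY and 5 were higher in HA than in IA. Over all miRNAs, limma called 151, 138 and 24 of 3211 pairs in these directions, in the same order.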

How the data were processed

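Total RNA was extracted from whole tissue, and small RNA libraries were sequenced single-end. Per the study's methods, the authors aligned reads with Bowtie within miRMaster, allowing 1 mismatch, counted them against miRBase and other RNA tables (build mm10 in the submitters' processing notes), left out shallow libraries, and deposited for every RNA a signal scaled to 1e+06 mapped reads of the library (rpmm), after a filter over all libraries. A mature sequence that differs little from another can share reads under a mismatch. In the aging table, 2 columns that could not be matched to 1 sample by name were not used. Whole reads were recovered from the deposited signal, whole within 0.05 reads for 99.0% (aging) and 98.8% (parabiosis) of miRNA values up to 1000 reads. Reads carried no molecular identifiers, so the worth of 3 reads reflects counting error only.

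A miRNA was kept in a tissue if 10% of its libraries reached 1 rpmm. Group differences were fitted on log2(rpmm + 1) with limma 3.58.1 in R 4.3.3 (pairs of a miRNA and a tissue tested: 8849 in aging, 3211 in parabiosis), with Benjamini-Hochberg adjustment over all miRNAs within tissue and contrast and a call at 0.05. edgeR 4.0.16, on recovered reads, was an alternative. Sexes were compared with age as a factor. The name of the strain of the HY mice is not reported here. Mouse values were compared by exact permutation tests and tissues by shuffles (scipy 1.17.1, numpy 2.4.6, Python 3.11.15). The scripts were tested on simulated data. Members and lists were chosen with earlier results of these data known. Named are the 3 members, the 3 miRNAs most like each by mean Pearson's r within tissues and over tissue medians, and up to 3 examples of each list with the largest difference.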

Additional observations from a re-analysis of the deposited data

Results flagged for a closer look

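In each group of 4 to 10 libraries, the highest and lowest library were compared with the rest by the gap to the nearest other library. Of 89 looked at, 10 were flagged for a library that stood apart, each for 1 member in 1 group. Chance alone gives about 1 in 20, but a library flagged for all 3 members counts 3 times. The count is therefore not set against that rate. In bone marrow at 9 months, the female replicate 30 had 15.7 rpmm of miR-296-3p (the others up to 5.32), 26.3 of miR-296-5p (up to 5.58) and 24.6 of miR-298-5p (up to 8.91). Its white blood cell miRNAs summed to 21429 rpmm (26402 to 38143 in the others) and its red blood cell miRNAs to 37402 (24843 to 64839). In MAT of HA, replicate 11A had 11.6 rpmm of miR-296-3p (the others up to 1.47), 4.69 of miR-296-5p (up to 2.00) and 10.1 of miR-298-5p (up to 1.53), beside a white blood cell sum of 28774 against 1493 to 8079.

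The remaining 4 concerned single miRNAs. Replicate 15A of IY in GAT had 1.62 rpmm of miR-296-3p, the others up to 1.21. Replicate 17A of IY in MAT had 6.49 rpmm of miR-296-5p, the others up to 2.83. Replicate 24 of bone marrow at 6 months had 9.28 rpmm of miR-296-5p, the others up to 4.35. Replicate 09 of brain at 27 months had 21.2 rpmm of miR-298-5p, the others 8.41 to 10.5, beside a red blood cell sum of 517 rpmm against 39.1 to 115 and a white blood cell sum of 1448 against 210 to 851.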

How the results depend on the processing

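Every difference called in the parabiosis cohort, between the sexes or per mouse kept its direction under the alternatives run. The tissue order and rho values near 0 did not: scaling moved the highest tissue of both miR-296 strands, and rho of miR-296-3p went from −0.02 to 0.10 in MAT with the miRNA sum and from −0.01 to 0.08 in SCAT with median-ratio scaling. Of 32 tests of a member in the parabiosis cohort, 3 were called as reported, 5 without the filter on low values, 5 with values scaled to the miRNA sum, 5 with edgeR, 2 with a pseudocount of 0.1, 4 with median-ratio scaling and 3 without the libraries close to another tissue, and 2 to 5 when 1 library was left out. No member had a mean of 10 rpmm in a parabiosis tissue, so that filter gave no value. Between the sexes, 1 was called as reported, 0 with a pseudocount of 0.1, 0 without the filter, 0 with age and plate, 0 where only miRNAs with a mean from 10 rpmm up were kept, 2 with values scaled to the miRNA sum, 2 with median-ratio scaling, 2 without the libraries close to another tissue and 0 to 2 when 1 library was left out. The slope between the sexes had 0 calls throughout. The count of rho under −0.5 was 19, 11 without the 1 month libraries and 18 to 21 otherwise. The mouse comparison had 1 call, 2 with a pseudocount of 0.1, 0 with the miRNA sum, 0 with the pair as unit, 2 without the 3 aged mice of the other substrain (chosen after seeing the data, when the parabiosis tests kept 3 calls) and 0 to 2 without 1 mouse. The neighbours in the tissue order had 9 calls, and 7 to 13 under the alternatives. Except where libraries or miRNAs were left out, the cause was not tested.

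With the pair as a replicate block, 4 of 32 were called, adding miR-296-5p in GAT for IA against IY (limma adjusted p = 0.0486), and as a fixed block in HA against HY 2 of 8 (adjusted p = 0.0235 and 0.0464). Partners' deviations correlated at −0.69 to 0.86 over 39 pairs of libraries in the 6 tissues, 25 of them above 0.1, and 12 correlated best with their own partner. At the median depth, a level of 0.149 rpmm is 3 reads, so heart, kidney, liver and limb muscle values are set by few reads.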

Other observations

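Limb muscle, below the level kept for tests in the parabiosis cohort, held 1 library in which all members were high. HA mouse 14A had 1.78 rpmm of miR-296-3p, 1.32 of miR-296-5p and 4.01 of miR-298-5p there, against at most 0.469, 0.225 and 0.425 in the other 6 HA libraries. Its white blood cell miRNAs lay inside the range of the others (435 to 907 rpmm in sum). In the heart, the same mouse had 0.0926, 0.0926 and 0.370 rpmm. In the aging cohort, replicate 38 of limb muscle at 9 months had 10.6 rpmm of miR-296-3p at a depth of 2.93 (in 1e+06 mapped reads), the others at most 4.11.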
